A study of Mus musculus with 32 samples.

Results

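Lipopolysaccharide (LPS), the outer membrane glycolipid of Gram-negative bacteria, was compared with no treatment in mouse bone marrow-derived macrophages labelled as knockout (KO) for Acod1. Acod1, also called Irg1, encodes the enzyme in mitochondria that turns cis-aconitate, an intermediate of the TCA cycle, into itaconate. The members are the 4 libraries labelled Acod1 KO with LPS and the 4 labelled Acod1 KO control, 8 of the 32 RNA-seq libraries in the series, chosen by genotype and treatment label alone. The LPS group received 100 ng LPS, with no volume given in the labels, for 24 h, and the control group received neither LPS nor dexamethasone over the same 24 h. Every library, with strain label C57BL/6J, came from marrow of femur and tibia of mice aged 8 to 12 weeks, grown into macrophages with supernatant of L929 cells as the source of M-CSF. The protocol names Irg1-/- mice for the knockout. For wild type (WT) it names Irg1+/+ mice and, from another supplier, C57BL/6J mice, and does not say which gave the WT libraries. The labels do not say whether the 4 replicates were separate mice, so the p values below reflect the variation among these libraries, some of which may be technical. WT libraries with the same treatments (4 control and 4 LPS) serve as the comparison for how far the response in the knockout differed, and the other 16 libraries of the series, all with dexamethasone, enter the estimate of spread and, in the fit with a lane term, the estimate of the lane effect.

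LPS binds CD14 and the receptor pair TLR4 and MD-2. The adaptors MyD88 and TRIF then lead to NF-kappaB, AP-1 and the interferon regulatory factors, which switch on cytokines, chemokines and, through secreted type I interferon, a further layer of antiviral genes. Macrophages exposed for a day also turn from oxidative metabolism toward glycolysis, leave the cell cycle and lower many genes of phagocytic clearance. Itaconate, the product missing in a true Acod1 knockout, is known to inhibit succinate dehydrogenase and to modify KEAP1, the repressor of the antioxidant factor NRF2.

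The 8 libraries held 18232013 to 25049200 counts of read pairs assigned to genes. Levels below are CPM (counts scaled to a common total) on library sizes scaled by TMM, given per library or as group mean ± SD (n = 4 libraries). Effects are log2 fold changes of LPS over control ± SE from the edgeR quasi-likelihood model of all 32 libraries, and "called" means an adjusted p (Benjamini-Hochberg over all 14427 genes tested) under 0.05. By that rule 10977 genes, 76.1% of those tested, changed with LPS in the knockout. Of these, 5310 rose (36.8% of all tested) and 5667 fell (39.3%), with a median of -0.03 over all tested genes. Rises of 2-fold or more covered 2113 genes (14.6%) and falls of 2-fold or more 2483 (17.2%), so that counts of called members in any gene list have to be read against these high background shares. At 10082 genes (69.9%) no LPS library overlapped any control library.

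Several features of the whole libraries moved with the treatment. LPS libraries had less of their counts in the 92 ribosomal protein genes (1.64% ± 0.0963 against 3.39% ± 0.0679 in control) and in the 37 mitochondrially encoded genes (0.280% ± 0.0326 against 0.420% ± 0.0223), and more in their 10 most abundant genes (10.9% ± 0.0813 against 8.67% ± 0.142). Each of these shares separated the groups completely, with an exact two-sided permutation p = 0.0286, the smallest that 70 splits of 8 libraries allow. TMM factors averaged 1.08 in control and 0.913 with LPS, and without that scaling the calls split into 3864 higher and 7455 lower, with the median of all genes at -0.27. All 4 LPS libraries came from sequencing lane 2, whereas 3 control libraries came from lane 3 and the fourth was merged from lanes, so lane and treatment cannot be told apart within the knockout. A fit with lane as a term, from which the merged library was dropped and which rests on a single knockout library with dexamethasone in lane 2, called 8380 of 14667 genes (57.1%), and 8266 of the 10977 calls remained. Of those 10977 genes, 10900 kept their direction in it. The lane coefficient had a median absolute log2 value of 0.085 over the genes of that fit, an estimate that rests on the same single library. The WT comparison, run within lane 3 alone, called 10923 genes.

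Markers of macrophages dominated both groups. The 14 macrophage genes listed for this check summed to 26532 to 28931 CPM in the control libraries and 22876 to 24163 CPM with LPS. Erythroid markers stayed at or under 0.604 CPM in sum. Of 12 T and NK cell markers 8 had no counts in any of the 8 libraries, Cd3e and Nkg7 among them. The 12 summed to 3.58 to 4.96 CPM in control and 0.156 to 0.554 CPM with LPS. The 10 dendritic cell markers summed to 6.20 to 7.15 CPM in control and 1.87 to 2.34 CPM with LPS. The 10 B cell markers summed to 75.6 to 87.5 CPM in control and 0.602 to 1.01 CPM with LPS, nearly all of it Ighm, the immunoglobulin mu chain gene (80.6 ± 5.00 to 0.205 ± 0.274 CPM). The 8 mast cell and basophil markers went from 20.6 to 25.8 CPM down to 2.20 to 2.45 CPM, mostly through Kit, the stem cell factor receptor (22.4 ± 2.41 to 2.31 ± 0.0865 CPM). The 9 fibroblast markers summed to 0.702 to 1.15 CPM in control and 15.6 to 19.4 CPM with LPS, mainly through Pdgfrb, a PDGF receptor (0.573 ± 0.156 to 14 ± 1.74 CPM), with Col3a1 and Thy1 at 0. The 12 neutrophil markers summed to 62.5 to 67.2 CPM in control and 125 to 138 CPM with LPS, nearly all in Csf3r and Mmp8, with Elane, Mpo, Cxcr2 and Retnlg at 0. In bulk RNA, fewer cells of a type and less RNA per cell cannot be told apart, and the part of these other cells in the results below was not tested.

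Acod1 itself, the gene named as deleted, was read in all 8 libraries. It was at 6.31, 6.20, 4.71 and 6.07 CPM in the 4 control libraries. With LPS it reached 4898, 4914, 4979 and 5187 CPM. The groups did not overlap, and the log2 fold change was 9.75 ± 0.076 (adjusted p = 1.0e-59). In the count table the gene (ENSMUSG00000022126) spans 103284413 to 103294009 of chromosome 14, plus strand. Which exons the knockout lacks is not in the labels, and a count covers every exon of the gene, so the knockout label cannot be checked from these reads. The libraries are called KO below as they are labelled. In WT the fold change was 9.35 ± 0.067. Of the 8 genes listed for the breakdown and transport of itaconate and neighbouring dicarboxylates, 5 rose and 3 fell. The largest changes were in Clybl, a mitochondrial lyase for citramalyl-CoA (4.95 ± 0.360 to 21.2 ± 0.890 CPM, log2 fold change 2.10 ± 0.11), and Abcg2, an efflux transporter (15.8 ± 1.05 to 3.16 ± 0.582 CPM, -2.33 ± 0.12). Nr3c1, the glucocorticoid receptor gene, fell slightly (143 ± 3.72 to 128 ± 6.04 CPM, -0.16 ± 0.045, adjusted p = 0.001), a call lost with the lane term (adjusted p = 0.24).

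The 12 largest rises, among protein-coding genes with a group mean of at least 5 CPM, were in genes that control libraries barely expressed. Il1b, the precursor of interleukin-1 beta, was at 0.100, 0.0968, 0.331 and 0.259 CPM in the controls. With LPS it stood at 7614, 6836, 7362 and 6477 CPM, a log2 fold change of 15.02 ± 0.47. Nos2, the inducible nitric oxide synthase, was at 0.150, 0.0484, 0.124 and 0.0370 CPM in control. The LPS libraries held 3755, 3422, 3697 and 3256 CPM of it (15.21 ± 0.68). Saa3, an acute phase apolipoprotein that macrophages make, went from 0.601, 0.436, 0.289 and 0.555 CPM to 22174, 22304, 22079 and 22190.0 CPM (15.51 ± 0.30). In each of these 3 genes the controls were close to 0 and the LPS libraries lay within a narrow band. Per kb of exon, Saa3 was at 8514 CPM with LPS, second only to Fth1, the ferritin heavy chain (10858 CPM per kb), among all genes. Where control libraries held 3 counts or fewer in all, ratios carry a counting interval (95%) or a bound against 3 counts over the group, and both cover counting error only. Il1a had 1 count in the controls and 144762 with LPS, a ratio of 177917 (interval 31932 to 7027380.0), and Lcn2, the siderophore-binding lipocalin, also had 1 count against 67364 (ratio 82792, 14859 to 3270170.0). Adm, the vasodilator peptide adrenomedullin, and Slamf1, a receptor of the SLAM family, had 0 control counts and were at least 1742-fold and 1259-fold higher. For some genes with next to no counts without LPS the lane effect could not be estimated, and their adjusted p with the lane term was 1 (Adm, Cxcl3, Il12a, Il12b, Csf3 and Cfb among those named here). Cd38, an NAD-degrading ectoenzyme (12.16 ± 0.89), Arg1, arginase 1 (12.03 ± 1.49), and Hp, haptoglobin (11.97 ± 0.41), completed the 12 largest rises together with Cxcl3 and Il6.

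The 12 largest falls, among protein-coding genes with a group mean of at least 5 CPM, ended at or near 0 counts with LPS. Neil3, a DNA glycosylase, had 1881 counts in the controls and 0 with LPS, at least 510.2-fold lower. E2f7, Depdc1a, Sapcd2 and Ska1, which act in cell cycle control and mitosis, also had 0 LPS counts, with bounds of 302-fold, 234-fold, 164-fold and 161-fold. Ube2c, Cenpf, Pbk, Esco2 and Ankle1 kept 1 or 2 counts among the 4 LPS libraries. Ube2c and Cenpf are the 2 of these 12 on the list of cell cycle genes described below. Also among the 12 were Hpgd, the enzyme that inactivates prostaglandins, and Slco2b1, an organic anion transporter with 1416 control counts and 0 with LPS (at least 384-fold lower). Hpgd stood at 180.3, 185, 174 and 155 CPM in control. With LPS it was at 0, 0.0504, 0.105 and 0.0602 CPM, a log2 fold change of -11.51 ± 0.92. In WT libraries the same genes fell too, Hpgd with a log2 fold change of -13.29 ± 1.84.

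**Figure D1:**
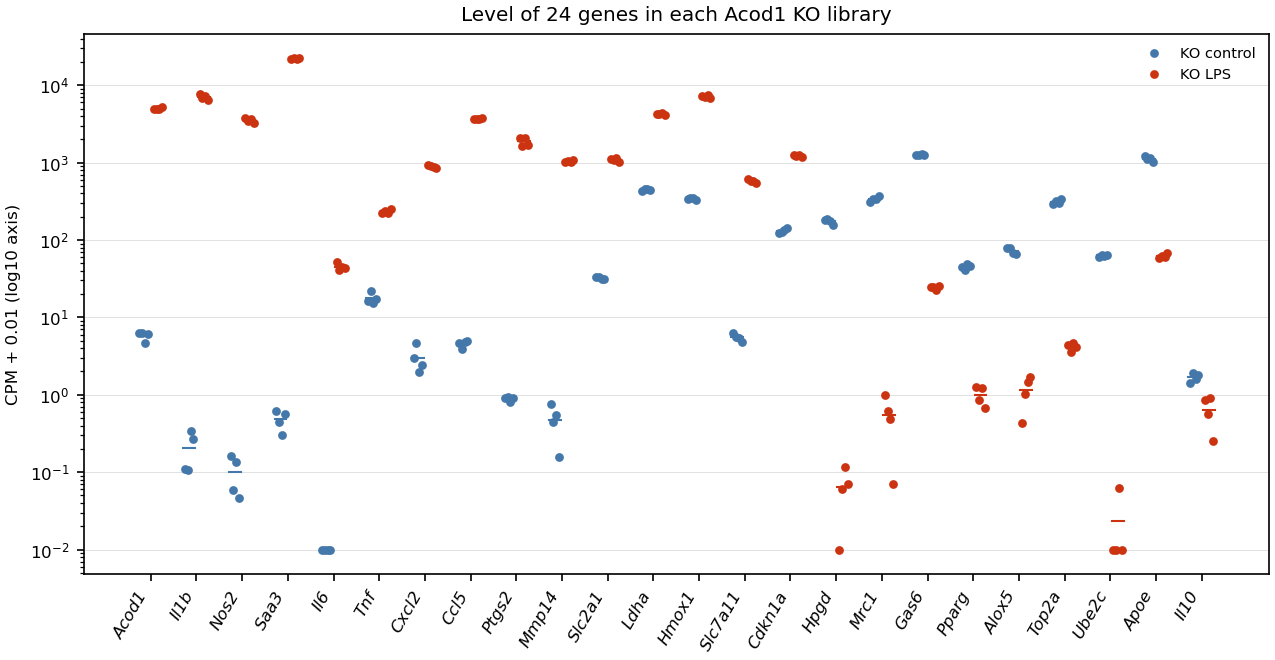
Level of 24 genes in each Acod1 KO library, in CPM plus 0.01 on a log10 axis, with control in blue and LPS in red (4 points each, and the mean as a bar). For each gene shown the control and LPS points lie apart, from Il1b and Saa3, near 0 in control, to Hpgd, Mrc1 and Top2a, which are high in control.

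Genes of LPS recognition itself moved in both directions. Of 32 tested members, 19 rose and 13 fell (median 0.44), against a background of 36.8% higher and 39.3% lower. The co-receptor Cd14 rose from 799 ± 19.6 to 2063 ± 39.8 CPM (1.37 ± 0.035), whereas Cd180, a TLR4 relative that dampens the response in macrophages, fell from 393 ± 7.91 to 141 ± 10.2 CPM (-1.48 ± 0.039). Its partner Ly86 fell as well (-1.33 ± 0.053). Among the 10 Toll-like receptors, Tlr1 (1.74 ± 0.054), Tlr2 (1.00 ± 0.049) and Tlr6 (1.06 ± 0.055), the pairs for bacterial lipoproteins, rose. The endosomal nucleic acid receptors Tlr7 (-1.54 ± 0.050), Tlr8 (-1.57 ± 0.055) and Tlr9 fell. Tlr9 was at 96.7, 81.1, 76.5 and 83.1 CPM in the 4 control libraries and 3.02, 4.58, 3.78 and 3.98 CPM with LPS, with the groups far apart. Among adaptors and kinases 13 of 18 rose, led by Irak3, the inactive kinase that restrains the receptor complex (35.1 ± 1.48 to 256 ± 11.8 CPM, 2.86 ± 0.046). Irak4 (-0.97 ± 0.052), Irak1 (-0.42 ± 0.038) and Tab2 (-0.34 ± 0.035) were among the 5 that fell.

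NF-kappaB genes rose almost as a block, 20 of 21 members with a median of 1.80. All 5 subunits rose, Nfkb2 (2.18 ± 0.043) and Relb (1.80 ± 0.061) by most. Rel rose by 0.12 ± 0.046, which was not called with the lane term (adjusted p = 0.28) and turned to a fall of -0.12 without TMM scaling. Of the inhibitors, Nfkbia, which holds NF-kappaB in the cytoplasm, went from 69.4, 63.4, 71.2 and 69.9 CPM to 561, 588, 573 and 567 CPM (3.06 ± 0.045). Traf1 (17.7 ± 1.55 to 535 ± 9.39 CPM, 4.91 ± 0.051) and Tnfaip3, the deubiquitinase A20 (17 ± 1.14 to 336 ± 13.3 CPM, 4.30 ± 0.050), led the ubiquitin editors and adaptors. Otulin, which removes linear ubiquitin chains, was the member that fell (85.8 ± 1.79 to 40.2 ± 0.852 CPM, -1.09 ± 0.050). Feedback genes outside NF-kappaB were also mostly higher, 12 of 18 members, with 5 lower. Socs3, an inhibitor of cytokine receptor kinases, rose from 3.47 ± 1.12 to 651 ± 20.8 CPM (7.56 ± 0.12), and Zc3h12a, an RNase that degrades cytokine messages, rose too (2.80 ± 0.057). Its fellow RNA decay factors Zfp36l1 (-0.99 ± 0.064) and Zfp36l2 (-0.96 ± 0.040) fell, while Zfp36 rose (0.47 ± 0.073). Dusp6, a phosphatase of ERK, was not called (-0.07 ± 0.066, adjusted p = 0.34).

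Secreted cytokines were largely induced: 22 of the 28 tested rose, 4 fell and 2 were not called (median 2.45). Il6 had no counts in any control library and 51.6, 41.2, 44.5 and 43.5 CPM with LPS, at least 1385-fold higher. Tnf was already present in control, at 16.2, 21.9, 15.2 and 17.2 CPM. LPS raised it to 220.3, 236, 222 and 249 CPM, a log2 fold change of 3.72 ± 0.078. Il12b, the p40 subunit of interleukin-12 and interleukin-23, had 0 control counts and 22, 19.6, 16.2 and 18.4 CPM with LPS (at least 584-fold). Il12a had 0 control counts and a mean of 8.69 CPM with LPS (at least 266-fold). Every read of these 3 genes in the knockout comparison came from LPS libraries. Ebi3, a subunit of interleukin-27, was expressed in both groups and rose from 26.9 ± 2.30 to 93.1 ± 3.44 CPM (1.80 ± 0.055). Il10, the anti-inflammatory cytokine, went the other way. It was at 1.40, 1.89, 1.61 and 1.81 CPM in control and 0.833, 0.554, 0.892 and 0.241 CPM with LPS, without overlap (-1.39 ± 0.39, adjusted p = 8.8e-04), although with the lane term it missed the threshold (adjusted p = 0.062). Il18 also fell (-0.59 ± 0.15), while Il1rn, the natural antagonist of the interleukin-1 receptor, rose from 11.5 ± 0.856 to 482 ± 54.1 CPM (5.38 ± 0.078).

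All 3 colony stimulating factor genes rose, and of 7 tested growth factor genes 5 rose, 1 fell and 1 was not called, against a background of 36.8% higher and 39.3% lower. Inhba, the activin A subunit, went from 0.125 ± 0.0649 to 510.2 ± 56.1 CPM (11.87 ± 0.59), Vegfa, which drives vessel growth, from 74.3 ± 3.23 to 444 ± 17.5 CPM (2.58 ± 0.056), and Csf1, which encodes M-CSF, from 10.7 ± 1.08 to 98.8 ± 5.36 CPM (3.21 ± 0.076). Igf1 fell from 934 ± 20.1 to 181 ± 18.5 CPM (-2.37 ± 0.045), and Tgfb1 was not called (0.05 ± 0.035, adjusted p = 0.23). Csf2 and Csf3, which encode GM-CSF and G-CSF, had 0 and 1 counts in control and were at 0.896 and 5.77 CPM with LPS. Of the 3 interferon genes listed, Ifnb1, Ifna4 and Ifng, none passed the filter on low counts.

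Chemokines rose in 19 of 23 tested members, with 3 lower and 1 not called (median 3.64). All 11 tested CXC members rose. Cxcl2, a neutrophil attractant, was at 3.00, 4.60, 1.98 and 2.41 CPM in control and at 943, 895, 879.9 and 859 CPM with LPS (8.25 ± 0.15). Cxcl3, its neighbour on chromosome 5, had 4 counts over the controls and reached 747, 697, 749.9 and 635 CPM (13.80 ± 1.06). Ccl5, an attractant of T cells and monocytes, was the most abundant of the list per kb with LPS (3863 CPM per kb) and went from 4.71, 3.92, 4.83 and 4.92 CPM to 3705, 3666, 3716 and 3749 CPM (9.65 ± 0.090). The 3 members that fell were CC chemokines. Ccl9 went from 736 ± 37.9 to 215 ± 9.22 CPM (-1.77 ± 0.036), Ccl6 from 70.5 ± 1.64 to 9.32 ± 0.821 CPM (-2.92 ± 0.068) and Ccl4, usually an early LPS target, from 54.5, 63.1, 45.3 and 48.1 CPM to 35.1, 29.8, 30.9 and 27.2 CPM (-0.77 ± 0.076). Of the 19 rises 10 passed the threshold with the lane term, and all 3 falls did. The receptors split: Ccr1 (5.30 ± 0.16) and the formyl peptide receptors Fpr1 (11.80 ± 0.73) and Fpr2 (10.19 ± 0.44) rose, while Ccr2, the receptor for Ccl2, fell from 76.2 ± 3.80 to 1.22 ± 0.269 CPM (-5.94 ± 0.16), and so did Cxcr4 (-2.59 ± 0.055) and C5ar1, for complement C5a (-2.25 ± 0.042).

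The upstream sequences of Cxcl2, Cxcl3 and Il6 are shown because these genes were near or at 0 in control and hold the letters of an NF-kappaB binding motif. They come from RefSeq on GRCm38.p6 and cover the 250 bases before the annotated start, 5′ to 3′ on the gene's strand. Capitals mark matches to the NF-kappaB motif on that strand, and matches on the other strand were not searched. The positions are of that build and differ from those of the count table. Cxcl2 lies at chr5:90903649-90903898, plus strand, Cxcl3 at chr5:90785851-90786100, plus strand and Il6 at chr5:30012864-30013113, plus strand.
Cxcl2: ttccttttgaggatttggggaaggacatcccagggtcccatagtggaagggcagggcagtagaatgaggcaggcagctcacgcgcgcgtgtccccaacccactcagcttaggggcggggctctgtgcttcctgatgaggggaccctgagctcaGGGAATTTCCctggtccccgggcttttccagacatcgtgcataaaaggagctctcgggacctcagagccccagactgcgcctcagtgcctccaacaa
Cxcl3: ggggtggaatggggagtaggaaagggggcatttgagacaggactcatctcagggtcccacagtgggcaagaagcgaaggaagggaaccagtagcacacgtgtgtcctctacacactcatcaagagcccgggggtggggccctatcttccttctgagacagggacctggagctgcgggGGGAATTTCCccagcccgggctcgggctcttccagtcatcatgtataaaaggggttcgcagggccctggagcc
Il6: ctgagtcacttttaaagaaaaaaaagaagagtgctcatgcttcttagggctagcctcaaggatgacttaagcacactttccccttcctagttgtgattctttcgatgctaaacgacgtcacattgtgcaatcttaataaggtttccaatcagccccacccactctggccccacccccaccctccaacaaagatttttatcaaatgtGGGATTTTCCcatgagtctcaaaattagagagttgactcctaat
The match begins 97 bases before the start in Cxcl2, 73 in Cxcl3 and 44 in Il6. Cxcl2 and Cxcl3 carry the same 10 letters there. A match is a string of letters and was not tested as a site. Of 12076 tested protein-coding genes, 7616 had a single promoter window in the table (250 bases before to 50 after the start, 300 in all). The NF-kappaB motif was searched on the gene's strand only, and the other motifs on both strands. Of these 7616 genes, 7.01% held the NF-kappaB motif on the gene's strand. Among the 300 of these genes with the largest called rises the share was 12%, and among the 300 with the largest falls 5.67%. The AP-1 letters TGANTCA were in 12% of the rises, 4.33% of the falls and 4.79% of all. The octamer TTTGCAT, included as a comparison, was in 3.33%, 2.67% and 3.28% in the same order. Neither the cAMP response element TGACGTCA (2.33% of the rises, 3.30% of all) nor the STAT motif TTCNNNGAA (6.33% and 6.82%) was in a larger share of the rises than of all promoters.

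Interferon-stimulated genes were mostly higher. Of 36 members 29 rose, 6 fell and 1 was not called, with a median of 0.92. Isg15, a ubiquitin-like modifier, was at 65.5, 65.5, 55.6 and 57 CPM in control and at 318, 317, 319 and 331 CPM with LPS (2.40 ± 0.060). Ifi205, of the DNA-binding HIN-200 family, had the largest rise (0.640 ± 0.122 to 84.7 ± 3.84 CPM, 7.03 ± 0.20). Zbp1, a sensor of Z-form nucleic acid (2.36 ± 0.044), Usp18, which removes Isg15 from proteins (1.82 ± 0.056), and Oasl1 (2.19 ± 0.053) rose as well. Ifit2 (-0.28 ± 0.060) and Ifit3b (-0.80 ± 0.079), antiviral proteins that bind foreign RNA, fell, and Oas2 was not called (0.09 ± 0.043, adjusted p = 0.063). Among the nucleic acid sensors, the RNA helicases Ddx58 (0.98 ± 0.042), Ifih1 (0.91 ± 0.040) and Dhx58 (0.93 ± 0.038) rose, while the DNA-sensing pair Cgas (-0.64 ± 0.079) and Tmem173, which encodes STING (-0.70 ± 0.053), fell. Guanylate-binding proteins, GTPases that attack intracellular microbes, rose in 7 of 8 tested members, Gbp2 from 28.9 ± 0.768 to 446 ± 14 CPM (3.95 ± 0.050) and Gbp5 from 4.75 ± 0.240 to 135 ± 2.27 CPM (4.82 ± 0.096). All 7 tested immunity-related GTPases rose, such as Igtp (1.07 ± 0.047). Several of these families hold near-identical copies (such as the Oas1, Gbp and Tgtp genes, and likewise Saa1 with Saa2, Hspa1a with Hspa1b and the Bcl2a1 genes), so reads may be split between them and single members are less certain.

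Upstream regions of Isg15, Ifi205 and Gbp2 are given with matches to GAAANNGAA, the core of the interferon-stimulated response element (ISRE), in capitals on either strand. The source and the window of 250 bases are as above. Isg15 lies at chr4:156200819-156201068, minus strand, Ifi205 at chr1:174031756-174032005, minus strand and Gbp2 at chr3:142620413-142620662, plus strand.
Isg15: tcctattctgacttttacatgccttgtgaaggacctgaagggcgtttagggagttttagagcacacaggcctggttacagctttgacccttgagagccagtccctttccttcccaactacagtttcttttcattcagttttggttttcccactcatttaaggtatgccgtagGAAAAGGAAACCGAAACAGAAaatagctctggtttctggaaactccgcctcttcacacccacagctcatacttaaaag
Ifi205: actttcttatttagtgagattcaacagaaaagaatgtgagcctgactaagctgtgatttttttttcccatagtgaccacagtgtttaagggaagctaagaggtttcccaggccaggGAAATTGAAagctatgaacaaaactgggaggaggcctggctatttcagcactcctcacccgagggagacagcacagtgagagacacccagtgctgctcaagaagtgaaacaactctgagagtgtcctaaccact
Gbp2: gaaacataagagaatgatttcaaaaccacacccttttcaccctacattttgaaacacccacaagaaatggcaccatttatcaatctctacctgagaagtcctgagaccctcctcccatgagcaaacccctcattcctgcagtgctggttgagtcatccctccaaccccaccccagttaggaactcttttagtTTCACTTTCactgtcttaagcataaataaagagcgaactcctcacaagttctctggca
Isg15 holds 3 overlapping matches between 78 and 58 bases before its start, and the other two hold 1 each. Among the interferon-stimulated list 16 of the 23 members with a single window hold the letters (69.6%), against 7.50% of all tested protein-coding promoters and 10.7% of the 300 largest rises. The list is one of known interferon targets, so the share describes the list and not its response here.

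Transcription factor genes differed by family. Of 14 AP-1 and ATF members, 12 rose and none fell, with Maff (5.27 ± 0.18), Batf (3.94 ± 0.11) and Fosl2 (2.68 ± 0.042) among them, while Jun (-0.03 ± 0.060) and Mafk (0.06 ± 0.051) were not called. Irf7, the factor for interferon genes, rose from 210.5 ± 10.6 to 1409 ± 18.7 CPM (2.74 ± 0.047) and Irf1 rose as well (1.17 ± 0.057), whereas Irf8 (-0.74 ± 0.034), Irf5 (-0.32 ± 0.035) and Irf4 (-2.45 ± 0.20) fell. Of 7 STAT members 4 rose, Stat2 (1.07 ± 0.045) and Stat3 (0.79 ± 0.033) among them, and 3 fell, Stat4 by the most (-2.10 ± 0.21). Among lineage factors 9 rose and 11 fell, against a background of 36.8% higher and 39.3% lower. Pparg, a lipid-sensing nuclear receptor of resident macrophages, fell from 45.2, 40.8, 49 and 46 CPM to 1.25, 0.856, 1.21 and 0.663 CPM (-5.49 ± 0.18), and Mef2c (-3.19 ± 0.069), Maf (-2.59 ± 0.040) and Cebpa (-1.99 ± 0.062) fell too. Cebpb, a partner of NF-kappaB at inflammatory genes, rose from 90.7 ± 6.35 to 599 ± 31.7 CPM (2.73 ± 0.056), and so did Hif1a, the oxygen-regulated factor (1.38 ± 0.043).

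Genes that supply arginine to Nos2 rose unevenly. Slc7a2, the cationic amino acid carrier, went from 4.36, 4.41, 3.76 and 5.18 CPM to 2546, 2385, 2306 and 2293 CPM (9.06 ± 0.089). Ass1, which rebuilds arginine from citrulline, rose from 16 ± 1.19 to 388 ± 22 CPM (4.60 ± 0.055), but Asl, the next enzyme, was not called (0.02 ± 0.047, adjusted p = 0.73). Gch1, the first enzyme of the cofactor tetrahydrobiopterin, rose (2.06 ± 0.056), whereas Pts (-0.75 ± 0.082), Spr (-0.18 ± 0.067) and Qdpr (-0.77 ± 0.052), which act later or recycle it, fell. The fall of Spr was not called with the lane term (adjusted p = 0.069). Both arginases rose, Arg2 from 0.522 ± 0.0542 to 29.3 ± 2.72 CPM (5.79 ± 0.27), while 5 of 10 members of the arginase and polyamine role fell, with Sat1 (-1.21 ± 0.034), Sms (-0.87 ± 0.053) and Amd1 (-0.89 ± 0.056) among them.

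Prostaglandin genes moved in both directions. Ptgs2, the inducible cyclooxygenase, was at 0.901, 0.920, 0.785 and 0.888 CPM in control and at 2096, 1629, 2092 and 1690.4 CPM with LPS (11.06 ± 0.27). Ptges, the inducible prostaglandin E synthase, rose from 1.08 ± 0.200 to 944 ± 21.8 CPM (9.75 ± 0.14). Ptgs1, the constitutive cyclooxygenase (-3.96 ± 0.12), and Hpgds, the prostaglandin D synthase (416 ± 14.9 to 31.4 ± 2.98 CPM, -3.73 ± 0.056), fell, as did Hpgd described above. Of 6 leukotriene and lipoxygenase genes 5 fell, Alox5 from 79.9, 77.9, 68.7 and 65.3 CPM to 0.417, 1.01, 1.47 and 1.69 CPM (-6.01 ± 0.20). Ptger2, a receptor of prostaglandin E2, rose (2.79 ± 0.12), Ptger3 fell (-3.39 ± 0.33) and Ptger4 was not called (-0.17 ± 0.097, adjusted p = 0.099).

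Acute phase and antimicrobial genes rose in 13 of 15 tested members, with a median of 8.26, or 6.39 with members near 0 in control set at their bound. Besides Saa3, Lcn2 and Hp, the copper oxidase Cp rose from 0.678 ± 0.416 to 202 ± 13.1 CPM (8.26 ± 0.25) and complement factor B, Cfb, from 0.112 ± 0.0669 to 52.7 ± 4.69 CPM (8.84 ± 0.50). The 2 that fell were the lysozymes. Lyz2 (-0.87 ± 0.042) had the highest per-kb level of any gene in control (11646 CPM per kb). Lyz1 (-0.46 ± 0.20, adjusted p = 0.036) had overlapping groups and lost its call with the lane term (adjusted p = 0.92) and in other settings. Of the 13 rises 8 passed with the lane term. Of 13 metalloproteases and their inhibitors 11 rose. Mmp14, a membrane-bound collagenase, went from 0.751, 0.436, 0.537 and 0.148 CPM to 1006, 1059, 1029 and 1073 CPM (11.17 ± 0.24), and Mmp13 (4.49 ± 0.12) and Mmp12 (3.41 ± 0.10) rose, while the inhibitor Timp2 fell from 444 ± 9.54 to 36.5 ± 1.93 CPM (-3.61 ± 0.042). Of 14 inflammasome genes 8 rose and 6 fell, against a background of 36.8% higher and 39.3% lower. Nlrp3 rose from 111 ± 7.47 to 386 ± 9.34 CPM (1.80 ± 0.037). Casp4, the intracellular LPS receptor of mice, rose (1.88 ± 0.059), and so did Mefv, which encodes pyrin (5.64 ± 0.28). Nlrp1b (-2.82 ± 0.083), Nek7 (-0.67 ± 0.039) and Txnip (-1.88 ± 0.053) fell.

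**Figure D2:**
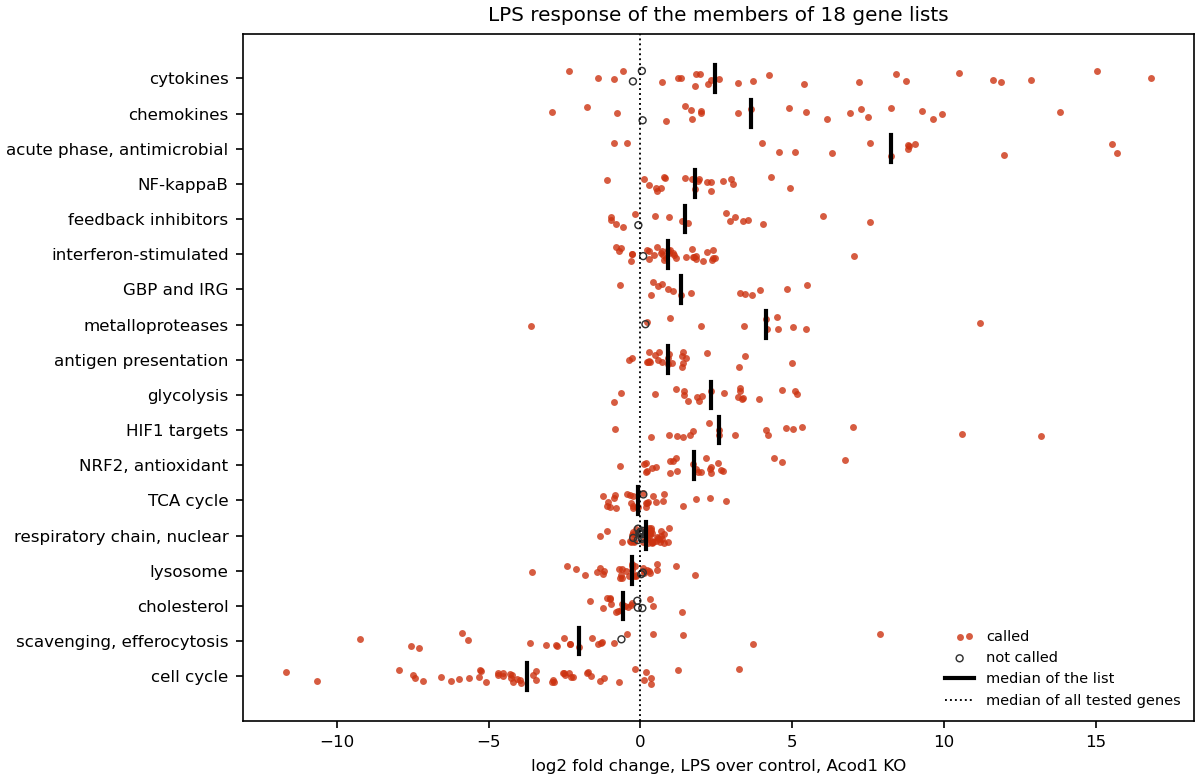
Log2 fold change of LPS over control in KO libraries for each tested member of 18 gene lists, 1 point a gene, filled where called and open where not, with the median of the list as a bar and the median of all 14427 tested genes as a dotted line. Chemokines, glycolysis, HIF1 targets and NRF2 targets lie mostly above the line, and cell cycle genes far below it.

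Glycolysis rose at nearly every step. Of 21 tested members 19 rose, 18 of them by 2-fold or more, and 2 fell (median 2.33). Slc2a1, the main glucose carrier, was at 33, 33.4, 31.7 and 31.2 CPM in control. With LPS it was at 1121, 1087, 1133 and 1016 CPM, a log2 fold change of 5.08 ± 0.054. Hk2 (3.23 ± 0.049), Pfkl (3.90 ± 0.039) and Pfkfb3 (4.65 ± 0.053), of the hexose phase, and Tpi1 (3.28 ± 0.041), Gapdh (2.75 ± 0.036), Pgk1 (3.38 ± 0.035) and Eno1 (3.34 ± 0.032), of the triose phase, all rose. Ldha, which makes lactate, went from 428, 452, 454 and 442 CPM to 4283, 4292, 4337 and 4183 CPM (3.27 ± 0.033), and Slc16a3, the lactate exporter, from 39.2 ± 1.47 to 1389 ± 35.1 CPM (5.15 ± 0.049). Slc2a3, a second glucose carrier (-0.87 ± 0.068), and Pfkfb4 (-0.65 ± 0.061) were the 2 that fell. The pentose phosphate branch moved less: 4 of 8 rose, Pgd from 554 ± 11 to 1277 ± 33 CPM (1.21 ± 0.030), 2 fell and Tkt (0.05 ± 0.035) and Rpia (0.08 ± 0.093) were not called. Other targets of HIF1 rose in 18 of 19 members (median 2.59). Ak4, a mitochondrial adenylate kinase, went from 0.187 ± 0.126 to 312 ± 9.24 CPM (10.59 ± 0.42), Bnip3, a mitophagy receptor, from 13.9 ± 1.28 to 385 ± 11 CPM (4.78 ± 0.062) and Ero1l, an oxidase of protein folding, from 38 ± 4.28 to 1231 ± 59.3 CPM (5.01 ± 0.054). Cited2, which restrains HIF1, fell (-0.85 ± 0.039).

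Windows upstream of Bnip3 and Slc2a1 are printed with the HIF core ACGTG in capitals on either strand, since both are known HIF1 targets that rose. Bnip3 lies at chr7:138909507-138909756, minus strand and Slc2a1 at chr4:119108495-119108744, plus strand.
Bnip3: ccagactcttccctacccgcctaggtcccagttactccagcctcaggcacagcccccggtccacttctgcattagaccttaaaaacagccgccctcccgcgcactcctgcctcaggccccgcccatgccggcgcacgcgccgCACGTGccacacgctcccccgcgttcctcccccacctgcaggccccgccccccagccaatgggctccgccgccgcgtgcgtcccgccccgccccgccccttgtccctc
Slc2a1: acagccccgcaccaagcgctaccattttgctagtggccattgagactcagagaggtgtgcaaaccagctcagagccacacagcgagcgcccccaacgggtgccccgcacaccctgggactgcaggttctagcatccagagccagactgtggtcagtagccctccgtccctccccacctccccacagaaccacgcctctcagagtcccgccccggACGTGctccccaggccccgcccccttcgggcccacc
In Bnip3 the 2 matches, 1 on each strand, overlap in the palindrome CACGTG. Of the 10 HIF1 targets with a single window 9 held ACGTG in its 300 bases (90.0%), against 25.8% of all tested protein-coding promoters and 26.3% of the 300 largest rises. In the 300 largest falls the share with ACGTG was 18.7%. The other HIF core, GCGTG, was in 38% of the 300 largest rises, 38.3% of the 300 largest falls and 52.3% of all. The list was written from known targets, so the share of its members too describes the list.

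The TCA cycle list, side reactions included, was in contrast split: 13 of 29 members rose, 15 fell and 1 was not called (median -0.09). Over all tested genes 36.8% rose and 39.3% fell (median -0.03). Cs, citrate synthase, rose (0.26 ± 0.037). The cytosolic isocitrate dehydrogenase Idh1 fell (-0.99 ± 0.042). Of the mitochondrial ones Idh2 (-0.82 ± 0.063), Idh3b (-0.31 ± 0.039) and Idh3g (-0.81 ± 0.046) fell, with Idh3a not called (0.09 ± 0.058, adjusted p = 0.14). Further on, Suclg2 of succinyl-CoA ligase fell from 22.6, 24.1, 24.5 and 20.8 CPM to 9.53, 10.9, 12.1 and 11.3 CPM (-1.07 ± 0.076). The 7 listed genes from succinate to oxaloacetate divided into 3 rises and 4 falls. Of succinate dehydrogenase, the enzyme itaconate inhibits, Sdha was among the falls (-0.34 ± 0.031) while Sdhb (0.51 ± 0.043) and Sdhd (0.76 ± 0.039) rose. Fumarase, Fh1, fell (-0.86 ± 0.062), and the malate dehydrogenases parted, the mitochondrial Mdh2 rising from 107 ± 2.53 to 281 ± 14 CPM (1.39 ± 0.036) and the cytosolic Mdh1 falling from 145 ± 6.09 to 66.9 ± 2.41 CPM (-1.12 ± 0.046). Among side reactions Pcx, which refills oxaloacetate, rose from 11.5 ± 0.542 to 80.7 ± 4.65 CPM (2.81 ± 0.077), as did malic enzymes Me1 (2.28 ± 0.072) and Me2 (1.83 ± 0.054), and Glud1, for glutamate entry, fell (-1.23 ± 0.031). At the pyruvate dehydrogenase complex itself the changes were small, Pdhb 0.27 ± 0.046 and Dlat 0.29 ± 0.053, with Pdha1 (0.01 ± 0.047) and Pdhx (-0.08 ± 0.079) not called. The changes of Pdhb and Dlat were not called with the lane term (adjusted p = 0.12 and 0.12) or without TMM scaling. Its inhibiting kinases Pdk1 (1.72 ± 0.040) and Pdk3 (1.38 ± 0.074) rose, and its activating phosphatases Pdp1 (-1.07 ± 0.064) and Pdp2 (-1.28 ± 0.077) fell.

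**Figure D3:**
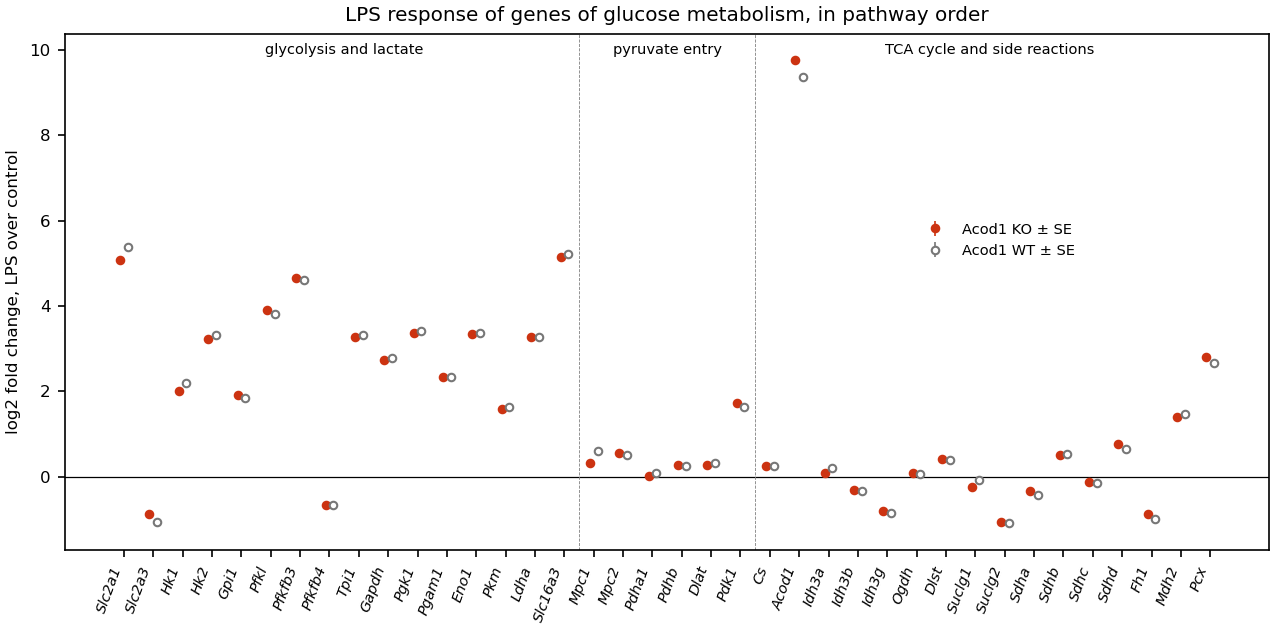
Log2 fold change of LPS over control ± SE in KO (filled) and WT (open) libraries for enzymes in pathway order, from glucose uptake to lactate export, pyruvate entry and the TCA cycle. Glycolytic genes lie above 0 with the exceptions of Slc2a3 and Pfkfb4, while TCA cycle genes lie on both sides of 0.

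Respiratory chain genes changed by small amounts. Of 52 tested nuclear subunits, 30 rose, 12 fell and 10 were not called (median 0.18), and none rose by 2-fold. Cox8a (0.79 ± 0.042), Cyc1 (0.79 ± 0.052) and Atp5b (0.72 ± 0.031) rose, while Ndufs8 (-1.35 ± 0.065) and Atp5g2 (-1.11 ± 0.059) fell by more than 2-fold. Changes of this size depended on the scaling. Without TMM, which moves the median of all genes by -0.24, 15 of these subunits rose and 24 fell, and of the 29 TCA cycle genes 8 rose and 17 fell, while the 19 glycolysis genes that rose and 2 that fell stayed at those numbers. Of 11 tested mitochondrially encoded genes 2 rose, 5 fell and 4 were not called, against a background of 36.8% higher and 39.3% lower. By most fell mt-Nd1 (474 ± 20.6 to 275 ± 24.9 CPM, -0.79 ± 0.056) and mt-Nd2 (-0.88 ± 0.059). With the lane term none rose and 2 fell. The mitochondrial share of all counts was lower with LPS, as given above, and its part in these values was not tested.

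Antioxidant genes under NRF2 rose in 19 of 19 members (median 1.81). Hmox1, heme oxygenase 1, was at 340.1, 352, 354 and 333 CPM in control and at 7319, 7078, 7584 and 6756 CPM with LPS (4.38 ± 0.037). Slc7a11, the cystine carrier, went from 6.36, 5.57, 5.37 and 4.85 CPM to 616, 571, 582 and 551 CPM (6.72 ± 0.10). Gclm, of glutathione synthesis (2.56 ± 0.044), Gsr (2.71 ± 0.043), Txnrd1 (2.15 ± 0.032) and Prdx1, a peroxidase at 6067 CPM with LPS (2.31 ± 0.038), rose with them. Sod2, the mitochondrial superoxide dismutase and also a known NF-kappaB target, rose from 64.1 ± 1.55 to 1631 ± 71.2 CPM (4.67 ± 0.033), while the cytosolic Sod1 fell (-0.67 ± 0.040). Cybb, the catalytic subunit of the phagocyte NADPH oxidase, rose from 1120.0 ± 41 to 6517 ± 142 CPM (2.54 ± 0.041). In iron handling the importers Slc11a2 (2.82 ± 0.046) and Tfrc (2.71 ± 0.050) and the storage protein Fth1 (1.81 ± 0.033) rose, and the exporter Slc40a1, ferroportin, fell from 137 ± 12 to 30.3 ± 2.70 CPM (-2.18 ± 0.068). Mt1, a metallothionein that binds zinc, rose from 91.7, 98.5, 96.9 and 99.7 CPM to 202, 214, 202 and 185 CPM (1.05 ± 0.051).

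Cell cycle genes fell together. All 18 replication genes and all 19 mitosis genes fell, with medians of -2.72 and -5.33, against a background of 39.3% lower. Top2a, the topoisomerase of dividing cells, was at 293, 318, 298 and 334 CPM in control. In the LPS libraries it was at 4.37, 3.53, 4.62 and 4.10 CPM (-6.23 ± 0.11). Ube2c, the ubiquitin-conjugating enzyme of the anaphase-promoting complex, was at 60.2, 64.9, 62.6 and 64.9 CPM in control, and the 4 LPS libraries together held 1 count (ratio 4729.8, interval 849 to 186847). Kif11, a spindle motor (-7.17 ± 0.26), Ccnb2, cyclin B2 (-7.49 ± 0.31), Rrm2, for deoxynucleotides (-6.58 ± 0.30), and the replication helicase genes Mcm5 (-4.28 ± 0.13), Mcm6 (-2.52 ± 0.057) and Mcm7 (-4.05 ± 0.11) fell. Among 13 regulators 6 rose and 7 fell. Cdkn1a, the inhibitor p21, rose from 122, 128, 136 and 142 CPM to 1274, 1234, 1272 and 1198 CPM (3.23 ± 0.051), and Ccnd2 (1.23 ± 0.089) and Ccnd3 (0.34 ± 0.044) rose while Ccnd1 (-4.24 ± 0.14), E2f2 (-3.96 ± 0.10) and the inhibitor Cdkn2c (-4.54 ± 0.099) fell.

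The promoters of Top2a and Ube2c are shown because they carry both letter groups searched for in cell cycle genes, CCAAT and TTTGAA (the cell cycle gene homology region, CHR). Capitals mark either, on both strands. Top2a lies at chr11:99024190-99024439, minus strand and Ube2c at chr2:164769679-164769928, plus strand.
Top2a: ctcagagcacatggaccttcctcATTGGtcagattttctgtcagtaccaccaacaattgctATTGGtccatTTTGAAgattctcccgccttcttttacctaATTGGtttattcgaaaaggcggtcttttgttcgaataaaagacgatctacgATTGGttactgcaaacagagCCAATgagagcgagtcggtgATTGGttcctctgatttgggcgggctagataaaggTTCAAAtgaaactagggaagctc
Ube2c: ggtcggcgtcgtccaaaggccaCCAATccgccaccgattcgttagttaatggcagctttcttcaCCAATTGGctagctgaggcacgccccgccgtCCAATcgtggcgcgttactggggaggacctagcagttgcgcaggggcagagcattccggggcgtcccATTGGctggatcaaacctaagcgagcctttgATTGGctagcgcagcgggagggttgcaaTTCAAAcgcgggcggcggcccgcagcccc
Top2a holds 6 CCAAT and 2 CHR matches in this window and Ube2c 6 and 1. Of 34 cell cycle members with a single window, 27 held CCAAT (79.4%) and 14 held CHR (41.2%) in 300 bases, against 39.8% and 12.1% of all tested protein-coding promoters. In the 300 largest falls the shares were 46.3% and 27.3%, and in the 300 largest rises 33.3% and 14%. Both letter groups together were in 17.3% of the 300 largest falls and 5.13% of all. The largest falls include members of the list, so the 2 shares overlap in their genes.

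Lipid genes moved mostly down. Cholesterol synthesis and its control fell in 14 of 20 members, with 3 higher and 3 not called (median -0.57). Idi1 (-1.67 ± 0.099), Dhcr7 (-1.23 ± 0.062), Fdps (-1.10 ± 0.078) and Hmgcs1 (-0.99 ± 0.076) fell. Fatty acid oxidation genes fell in 8 of 9 members, such as Cpt1a, which admits long-chain acyl groups to mitochondria (-0.84 ± 0.043). Of the synthesis genes Fasn fell (-1.69 ± 0.073) and Scd2 rose (2.56 ± 0.057). Acsl1, which activates fatty acids and is known to rise in inflamed macrophages, went from 55.3, 49.4, 52.9 and 56.9 CPM to 2916, 2958, 2955 and 3182 CPM (5.81 ± 0.048). LXR targets parted: the exporter Abca1 rose from 181 ± 13.5 to 756 ± 16.3 CPM (2.06 ± 0.047), while Apoe, a lipoprotein component that macrophages secrete, fell from 1213, 1119.9, 1156 and 1034 CPM to 58.4, 61.4, 60.1 and 67 CPM (-4.20 ± 0.061). Cyp27a1, a sterol hydroxylase (-6.28 ± 0.20), and Pltp, a phospholipid transfer protein (-1.50 ± 0.041), fell as well.

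Stress genes rose in 30 of 37 tested members and fell in 5 (median 0.59). Atf4 (150.5 ± 4.61 to 555 ± 20.6 CPM, 1.88 ± 0.045), the main factor of the integrated stress response, and its known targets Trib3 (3.31 ± 0.12), Ddit4 (3.68 ± 0.15) and Mthfd2 (2.01 ± 0.056) rose, but Psat1 (-1.10 ± 0.093), of serine synthesis, and Shmt2 (-1.02 ± 0.062), which uses serine, fell. Genes of protein folding in the endoplasmic reticulum rose in 12 of 15 members with a median of 0.36, Hyou1 by 0.95 ± 0.037 and Calr by 0.77 ± 0.029. Xbp1 (-0.32 ± 0.033), Edem1 (-0.54 ± 0.033) and Sdf2l1 (-0.36 ± 0.058) fell. All 7 heat shock genes rose, Hsph1 by 1.61 ± 0.051 and Hsp90aa1 by 1.33 ± 0.035. Ribosome biogenesis factors fell in 14 of 18 members, such as Npm1 (-0.76 ± 0.032) and Wdr12 (-1.54 ± 0.088), and 8 of these falls passed with the lane term. Eef1a1, the elongation factor that brings transfer RNA to the ribosome and among the 10 most abundant genes per kb in control, fell from 7129 ± 244 to 929.5 ± 120.0 CPM (-2.94 ± 0.073). These falls go with the lower ribosomal protein share of the LPS libraries, and its part in them was not tested.

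Most scavenger receptor, efferocytosis and alternative activation genes fell: of 25 tested members 19 fell, 5 rose and 1 was not called. Mrc1, the mannose receptor, was at 306, 338, 335 and 372 CPM in control and at 0.989, 0.604, 0.472 and 0.0602 CPM with LPS (-9.25 ± 0.32). Gas6, which bridges dying cells to phagocytes, went from 1258, 1250.1, 1294 and 1270.0 CPM to 24.9, 24.4, 22.9 and 25.7 CPM (-5.69 ± 0.040), and its receptors Axl (-2.31 ± 0.052) and Mertk (-2.78 ± 0.085) fell too. Fcrls (232 ± 6.19 to 1.47 ± 0.777 CPM, -7.31 ± 0.17) and Cd163 (-3.11 ± 0.11) fell. The scavenger receptors Marco (0.0770 ± 0.0405 to 148 ± 13.9 CPM, 10.81 ± 0.59) and Msr1 (86.2 ± 5.94 to 1120.1 ± 48.5 CPM, 3.70 ± 0.044) were among the 5 that rose. The 3 chains of complement C1q, C1qa (-3.77 ± 0.068), C1qb (-2.99 ± 0.040) and C1qc (-3.70 ± 0.046), fell, while C3 rose from 56.4 ± 7.25 to 1546 ± 51.5 CPM (4.78 ± 0.055). Of 14 general macrophage genes 4 rose, 9 fell and 1 was not called. Adgre1, the F4/80 antigen, rose from 1066 ± 21.3 to 4159 ± 36.6 CPM (1.96 ± 0.031), Cd68 fell (-1.59 ± 0.037), and Csf1r, the M-CSF receptor, was not called (3745 ± 120.2 to 3584 ± 30.5 CPM, -0.06 ± 0.031, adjusted p = 0.062).

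Antigen presentation genes were higher. All 13 class I and immunoproteasome members rose, Tap1 by 2.19 ± 0.038 and H2-K1 from 1443 ± 42.7 to 3713 ± 45 CPM (1.36 ± 0.034). In the class II and co-stimulation role 9 of 11 rose, H2-Ab1 from 40.2 ± 2.47 to 433 ± 4.06 CPM (3.43 ± 0.053), Cd40 by 3.24 ± 0.084 and Cd274, the checkpoint ligand PD-L1, from 30.9, 28.8, 29.2 and 25.5 CPM to 933, 863, 953 and 847 CPM (4.98 ± 0.054), while Ciita, the class II master regulator, fell (-0.37 ± 0.10). With the lane term 4 of these 9 rises passed and Ciita did not (adjusted p = 0.67). Lysosomal genes fell in 22 of 34 members, Lgmn from 1184 ± 35.1 to 222 ± 9.75 CPM (-2.42 ± 0.033), and with it Lipa, the acid lipase (-2.13 ± 0.032), and Tfeb, the factor that drives lysosome genes (-1.82 ± 0.055), whereas the cathepsins Ctsc (1.81 ± 0.037) and Ctsz (1.17 ± 0.035) rose. Of 14 adhesion genes 10 rose, Icam1 from 63.5 ± 3.56 to 371 ± 9.50 CPM (2.55 ± 0.043) and Itga5 from 139.9 ± 4.18 to 869 ± 28.8 CPM (2.64 ± 0.040), and Itgb3 fell (-4.52 ± 0.16). The adenosine receptors Adora2a (0.261 ± 0.133 to 67.4 ± 5.44 CPM, 8.04 ± 0.33) and Adora2b (6.07 ± 0.19) rose, while Entpd1, which degrades extracellular ATP, fell (-3.56 ± 0.079). Of 19 genes of the Bcl2 family and cell death, 11 rose and 7 fell. Cflar (139.5 ± 6.11 to 917 ± 18.3 CPM, 2.72 ± 0.045) and Bcl2a1d (5.82 ± 0.15) rose, and Bcl2l1 (-0.68 ± 0.036) and Bbc3 (-1.09 ± 0.075) fell. The list of the glucocorticoid receptor and its targets gave no single direction, with log2 fold changes from -7.55 to 7.50. Of its 11 members 4 were higher (Sgk1 1.74 ± 0.040, Per1 1.03 ± 0.051) and 7 lower (Fkbp5 -1.34 ± 0.088, Tsc22d3 -0.90 ± 0.082), against a background of 36.8% higher and 39.3% lower.

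The response in KO libraries was close to that in WT libraries, which share no samples with it. Of the 5310 genes that rose in KO, 4928 also rose in WT (92.8% of the KO rises and 91.4% of the WT rises), 5097 fell in both (89.9% of KO falls and 92.2% of WT falls), and 14 were called in opposite directions. Across the 14427 genes the log2 fold changes had a Pearson r of 0.968, which is over genes and not over samples. The difference itself, tested as an interaction, was called for 536 genes (3.72%), 299 with a higher log2 fold change in KO (2.07%) and 237 with a lower one (1.64%). In 332 of them the response was smaller in KO, in 156 larger and in 48 of opposite sign. Most were small, with a median absolute difference of 0.31 on the log2 scale, and 30 reached 2-fold. KO LPS is the only one of the 4 groups in lane 2, so lane and this difference cannot be told apart. With the lane term 113 of 14667 genes (0.77%) were called, and 107 of the 536 remained.

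**Figure D4:**
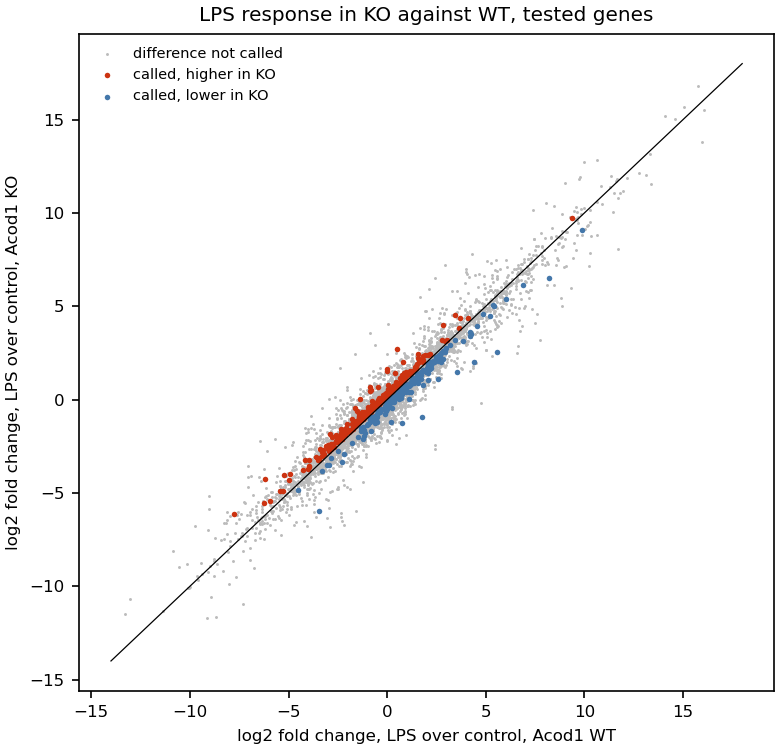
Log2 fold change of LPS over control in KO libraries against the same in WT libraries, 1 point for each of 14427 tested genes, with the 536 genes whose difference was called in colour (299 higher and 237 lower in KO). The points follow the diagonal, and the coloured genes lie off it by a median of 0.31.

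Of the 8 largest called differences in each direction among protein-coding genes that reached a mean of 5 CPM in 1 of the 4 groups, that of the metallothionein Mt1 had the smallest p. Mt1 rose in KO as given above, and in WT from 96.5 to 407 CPM (2.08 ± 0.051), a difference of -1.02 ± 0.072 on the log2 scale (adjusted p = 1.9e-14). It remained called with the lane term (-0.998, adjusted p = 2.4e-07). Tmem176b, a membrane channel of antigen-presenting cells, fell less in KO (28.2 ± 2.81 to 18.7 ± 1.22 CPM, -0.58 ± 0.075) than in WT (-1.55 ± 0.084), a difference of 0.97 ± 0.11 (adjusted p = 6.9e-08, and 8.7e-04 with the lane term). Upp1, uridine phosphorylase, rose in KO from 0.442 ± 0.0690 to 40.9 ± 1.62 CPM and in WT from 0.192 to 59 CPM. The difference was -1.69 ± 0.46 (adjusted p = 0.013). With the lane term it was -1.60 ± 0.75, a similar value with a wider error, and was not called (adjusted p = 0.50). Slc7a2 rose less in KO (difference -0.84 ± 0.14, adjusted p = 6.9e-05), as did Mmp12 (-0.77 ± 0.15, adjusted p = 5.9e-04), and the lane term kept the first (adjusted p = 0.009) and not the second (adjusted p = 0.099). Unc5b, a netrin receptor, rose less in KO (-1.03 ± 0.24), and Chek1, a checkpoint kinase (-1.10 ± 0.33), Ica1 (-0.89 ± 0.27) and Atp2b4, a calcium pump (-0.83 ± 0.17), fell further in KO.

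Among the differences in the other direction were Nxpe5 (1.92 ± 0.40) and Zfyve28 (1.18 ± 0.29). These fell in both genotypes and were under 2 CPM with LPS in both. Gm2000 rose in KO (0.50 ± 0.16) and fell in WT (-0.83 ± 0.18, difference 1.34 ± 0.24), but its KO libraries overlapped between treatments, and with the lane term the KO change was -0.41 (adjusted p = 0.14), of the same sign as in WT. Klra2 (1.17 ± 0.35) and Egr1, an immediate-early factor (1.13 ± 0.30), rose by more in KO, and P2ry13, an ADP receptor, fell by less (1.08 ± 0.23). With the lane term the differences of Klra2, P2ry13 and Atp2b4 remained called, and those of Nxpe5, Gm2000, Zfyve28, Egr1, Unc5b, Chek1 and Ica1 did not. In the same order, the estimates of those not called were 1.44 ± 0.45, 0.42 ± 0.28, 1.13 ± 0.33, 1.10 ± 0.58, -1.02 ± 0.40, -0.81 ± 0.45 and -0.88 ± 0.36 with the lane term.

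**Figure D5:**
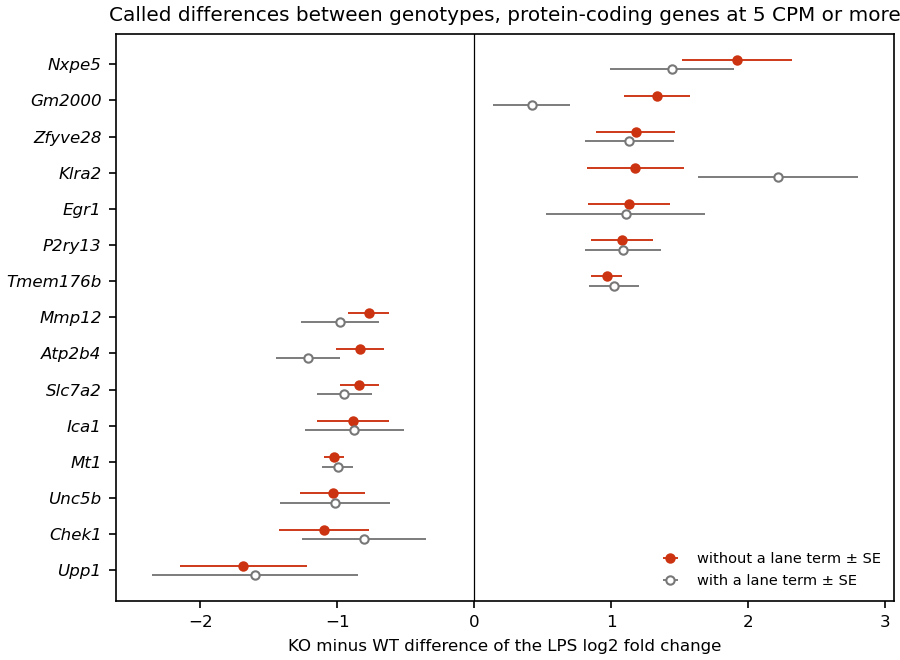
KO minus WT difference of the LPS log2 fold change ± SE for the genes named here from the 8 largest called differences in each direction among protein-coding genes that reached a mean of 5 CPM in 1 of the 4 groups, from the fit without a lane term (filled) and with it (open). With the lane term the differences keep their sign and have wider errors.

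Differences were spread unevenly over the lists, against the background of 2.07% higher and 1.64% lower. Lane and these differences cannot be told apart, and most of all called differences were not called with the lane term. Of 23 tested chemokines 7 had a lower LPS effect in KO and none a higher one. They were Ccl9 (-0.63 ± 0.050, adjusted p = 1.1e-12), Ccl6 (-0.75 ± 0.090, adjusted p = 1.1e-07), Ccl4 (-0.65 ± 0.11, adjusted p = 4.5e-05), Ccl2 (-0.75 ± 0.20), Cxcl10 (-0.73 ± 0.14), Pf4 (-0.54 ± 0.14) and Ccl3, and for Ccl9, Ccl6 and Ccl4 the lane term kept the call. Endoplasmic reticulum folding genes had 8 of 15 lower, Hsp90b1 (-0.24 ± 0.040), Hyou1 (-0.26 ± 0.053) and Manf (-0.32 ± 0.080) among them, and cholesterol genes 6 of 20, such as Fdps (-0.40 ± 0.11) and Lss (-0.30 ± 0.075). The 3 C1q chains fell less in KO, with differences of 0.49 ± 0.099 for C1qa (adjusted p = 9.5e-04), 0.32 ± 0.057 for C1qb (1.6e-04) and 0.34 ± 0.066 for C1qc (7.7e-04), none of which passed with the lane term (adjusted p = 0.051, 0.059 and 0.062). Lyz2 (0.47 ± 0.059, adjusted p = 4.5e-07), Pltp (0.59 ± 0.059, adjusted p = 2.2e-09), Txnip (0.73 ± 0.076, adjusted p = 3.3e-09), Tlr8 (0.76 ± 0.080, adjusted p = 4.0e-09) and Csf3r (0.55 ± 0.071, adjusted p = 4.5e-07) also fell less or rose more in KO, and all 5 remained called with the lane term. Prdx1 rose less in KO (-0.37 ± 0.053, adjusted p = 5.3e-06, and 0.010 with the lane term) and Hmox1 more (0.26 ± 0.052, adjusted p = 8.3e-04, and 0.11), and of the 19 NRF2 targets 4 had a lower and 1 a higher effect. Of 21 glycolysis genes 4 had a lower effect, Slc2a1 (-0.30 ± 0.078) and Hk1 (-0.17 ± 0.050) among them, and 1 a higher one. On the TCA cycle list the single called difference was that of the cytosolic Idh1 (0.27 ± 0.059, adjusted p = 0.003), lost with the lane term (adjusted p = 0.19). The difference for Acod1 itself was 0.40 ± 0.10 (adjusted p = 0.013), a call also lost with the lane term (adjusted p = 0.61).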

How the data were processed

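RNA was sequenced from 32 macrophage libraries, 4 in each of 8 groups. Values are raw counts of read pairs per gene, which the authors made with featureCounts 2.0.0 over GENCODE vM32 exons without strand, per the file headers. The submitters' processing notes also name STAR, whose version is not given in the sources used here, with GRCm38 and mm10 as builds, so positions are printed as the table gives them. Of 56953 gene IDs, 52029 were matched to symbols, and the rest held 0.846% of counts. Totals were 17559079 to 25049200 per library. Unstranded counting cannot part overlapping or antisense genes.

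In R 4.3.3, 14427 genes passed filterByExpr and were fitted with edgeR 4.0.16 (TMM, quasi-likelihood F test, all 8 groups, Benjamini-Hochberg adjustment, threshold 0.05), with an interaction for the KO minus WT difference. Standard errors are Wald errors from the fitted means and the moderated quasi-dispersion. DESeq2 1.42.0 was an alternative. The alternatives covered scaling, filter, tool, threshold, groups fitted, replicate block, lane and each library left out. Code was tested on simulated data. Lanes came from the header paths. The lane fit used 31 libraries, leaving out the merged one. Replicates of a group differed beyond sampling noise (chi-square per degree of freedom 2.22 to 4.76 over 12 pairs), so none was counted as a duplicate.

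Named genes are a fixed set of 8, the listed members with the smallest p, against the main direction or not called, the 12 largest rises and falls and the 8 largest differences each way (protein-coding, called, mean of 5 CPM or more in a group), and the 10 most abundant per kb. A few genes these rules allow are not reported here. The groups and gene lists were chosen with earlier results of these data known, and some lists may have been drawn up after such results were seen. Promoters are RefSeq, GRCm38.p6.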

Additional observations from a re-analysis of the deposited data

Results flagged for a closer look

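In 28 of the 632 groups of 4 KO libraries examined (4.43%), the highest or lowest library stood apart from the other three by Dixon's test at its 95% critical value for 4 values. Chance alone gives about 1 in 20 such groups. LPS replicate 4 gave 7 of these values, with Acsl1 at 3182, Batf at 45.8, Hsph1 at 72.3, Isg15 at 331, Manf at 80.8 and Tab2 at 142 CPM and a mitochondrial share of 0.329%. LPS replicate 3 gave Me2 at 135, Socs3 at 682, Stat4 at 1.73, Tlr6 at 42.5 and Ube2c at 0.0524 CPM. LPS replicate 2 gave Irf1 at 102 and Mertk at 8.41 CPM. Among the controls, replicate 1 gave Atp5g2 at 74.0, Dlat at 44.8, Il1a at 0.0501, Lss at 46.7 and Ptger2 at 3.30 CPM, replicate 2 gave Ass1 at 14.2 and Pdha1 at 42.8 CPM, and replicate 3 gave Acod1 at 4.71 CPM. Control replicate 4 gave Csf3 at 0.0370, Inhba at 0.222, Irak3 at 37.3, Lcn2 at 0.0370, Mefv at 0.111 and Pltp at 673 CPM. The values for Csf3, Il1a, Lcn2 and Ube2c are of 1 count each in a group otherwise at 0.

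The LPS response differed between KO and WT, by the edgeR interaction test over all 14427 genes (adjusted p under 0.05), for 61 of the 312 genes named, 27 with a higher and 34 with a lower log2 fold change in KO. Of the 61, 21 also passed with the lane term, and lane and this difference cannot be told apart. Values below are the KO log2 fold change minus that in WT.

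Genes that fell less in KO included the complement chains C1qa (0.49), C1qb (0.32) and C1qc (0.34), the lysosomal Lgmn (0.36), Lipa (0.15), Lyz2 (0.47) and Tfeb (0.31), the macrophage factor Maf (0.38), and Ciita (0.58). The same held for Ly86 (0.46), Nlrp1b (0.49), Tlr8 (0.76), Pltp (0.59), Idh1 (0.27), Timp2 (0.36), Txnip (0.73), Tmem176b (0.97), P2ry13 (1.08), Nxpe5 (1.92) and Zfyve28 (1.18). Genes that rose further in KO were Acod1 (0.40), Csf3r (0.55), Hmox1 (0.26), Sgk1 (0.25), Klra2 (1.17) and Egr1 (1.13), and Gm2000 (1.34) had opposite signs. With the lane term the KO change of Gm2000 was -0.41, of the same sign as in WT, and its difference was 0.42 (adjusted p = 0.70).

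In the other direction, the secreted and receptor genes Ccl2 (-0.75), Cxcl10 (-0.73), Pf4 (-0.54), Il1rn (-0.63), Cd14 (-0.20), Mmp12 (-0.77) and Mmp13 (-0.74) rose less in KO. So did the interferon-related Irf7 (-0.23) and Oasl1 (-0.62), the chaperones Hsp90aa1 (-0.23), Hsp90b1 (-0.24), Hyou1 (-0.26) and Manf (-0.32), and the metabolic genes Slc2a1 (-0.30), Hk1 (-0.17), Ero1l (-0.39), Mthfd2 (-0.34), Ass1 (-0.27), Slc7a2 (-0.84) and Upp1 (-1.69). Fosl2 (-0.24), Prdx1 (-0.37), Mt1 (-1.02) and Unc5b (-1.03) also rose less. Ccl6 (-0.75), Ccl9 (-0.63), Fdps (-0.40), Psat1 (-0.56), mt-Nd2 (-0.32), Chek1 (-1.10), Ica1 (-0.89) and Atp2b4 (-0.83) fell further in KO. Ccl4 (-0.65) and Lss (-0.30) were lower in the KO response too.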

How the results depend on the processing

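The count of genes called for LPS in KO (10977) stayed within 1.5 times under each alternative run: another scaling, no filter on low counts, DESeq2, an adjusted p under 0.01, only the groups compared, a replicate block, a lane term, and each library left out in turn. The lowest count was 8380, with the lane term. Scaling moved the split most, to 5540 higher and 5414 lower with RLE factors, 5546 and 5422 with DESeq2, and 3864 and 7455 without scaling, where the median of all genes moved by -0.24. Of the 312 named genes 281 kept their direction and call in every setting. Without scaling the sign turned for Asl (-0.22), Idh3a (-0.15), Mafk (-0.18), Oas2 (-0.15), Pdha1 (-0.23), Rel (-0.12), Tgfb1 (-0.20) and Tkt (-0.19), and with the lane term for Gm2000 (-0.41) and Jun (0.25). The cause was not tested.

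The KO minus WT difference depended more on the setting. Its 536 calls (299 higher, 237 lower) became 113 (72, 41) with the lane term, 314 (199, 115) with only the 4 groups compared and 260 (162, 98) at an adjusted p under 0.01, which is a stricter threshold. Leaving out each library gave 427 to 573, and DESeq2 gave 701. Of the 61 differences named, 20 kept their direction and call in every setting, and 18 lost the call when some library was left out. The cause was not tested.

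No pairing by replicate number was seen in the counts. Same-numbered control and LPS libraries had deviations correlated at -0.0017 to 0.014, and 1 of 4 correlated best with its own number. Whether same-numbered libraries share a mouse is not in the labels and was not tested. With the replicate block 10990 genes were called in KO and 601 for the difference.

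With the 150 largest changes in place of 300, the cAMP response element was in 0.667% and the HIF core GCGTG in 32% of promoters of the rises, and CCAAT in 52.7% and CCAAT with CHR in 23.3% of those of the falls. Depth limits genes with few counts in 1 group, where only bounds or wide intervals are given.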
